A study of Mus musculus with 24 samples.

Results

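The genes described here are 10 endoderm effectors and basement membrane genes, measured in P19 cells: Lama1, Lamb1, Lamc1, Col4a1, Col4a2, Nid1, Plat, Dab2, Lrp2 and Hhex. They were chosen by name, with earlier results of these data known. A share of all genes set beside a count of the 10 is therefore a description, not a test. Each gene was read from its probe set with the highest mean among the probe sets annotated to that symbol alone. All 10 were measured, of 19938 genes in all, and Dab2 was the only one with more than 1 probe set. P19 is an embryonal carcinoma line of the mouse, which retinoic acid can cause to differentiate. The data are 24 arrays of the Affymetrix Mouse Gene 1.0 ST type, each hybridized with RNA from a monolayer of P19 cells on gelatine.

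Of the agents, all-trans retinoic acid (ATRA), a ligand of the retinoic acid receptors (RARs) of every subtype, was given at 1 µM. BMS753, described by the labels as specific for RARα, was also given at 1 µM. BMS641, specific for RARβ, and BMS961, specific for RARγ, were given at 0.1 µM. Each agent had 1 array at each of 2, 6, 24, 48 and 72 h. The ethanol control (EtOH) had 4 arrays, which carry no time label, so time in culture and the agent cannot be told apart in any comparison with EtOH. The labels do not say whether the arrays came from separate cultures, so p-values measure only the spread between these arrays, which may be technical. A single line was used, and a whole plate was measured at once: more cells of a type and more RNA per cell cannot be told apart.

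A basement membrane is a sheet of extracellular matrix in which a laminin network and a collagen IV network are joined by nidogen and the heparan sulfate proteoglycan perlecan. Parietal endoderm, an early embryonic cell layer, lays down a thick one (Reichert's membrane), and visceral endoderm takes up maternal proteins through the megalin receptor and its adaptor. Embryonal carcinoma lines of the mouse are a long-used model in which retinoic acid can bring on endodermal or neural differentiation, depending on the line and the culture.

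All values are log2 intensities as deposited, and changes are differences of log2 intensity. For each gene the 24, 48 and 72 h arrays of an agent (late, n = 3) or its 2 and 6 h arrays (early, n = 2) were compared with the 4 EtOH arrays in 1 limma fit over all 19938 genes. Genes with a Benjamini-Hochberg adjusted p under 0.05 count as called. The arrays of a phase are different times, so the error (SE) also holds how far an agent's course departed from the time course shared by the 4 agents. For a single array set against EtOH, a call needs an adjusted p under 0.05 together with a 2-fold or larger change, on the assumption that a lone array varies like the EtOH arrays.

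With ATRA at 24 to 72 h, 6 of the 10 genes were higher than in EtOH (Lama1, Col4a2, Nid1, Plat, Dab2 and Hhex), 1 was lower (Lrp2), and Lamb1, Lamc1 and Col4a1 were not called. Over all genes tested, 36.9 percent were called in that comparison, 17.9 percent higher and 19 percent lower. The median change of the 10 genes was 0.38, against 0.03 for all genes. The strongest changes were those of Plat, Dab2 and Lama1. In a fit of the ATRA and EtOH arrays alone, without time terms, Dab2 was the only one of the 7 still called. Of the 10 genes, 5 had every late ATRA array above every EtOH array (Lama1, Col4a2, Nid1, Plat and Dab2), against 15.1 percent of all genes, and 0 had every late ATRA array below, against 16.2 percent.

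**Figure D1:**
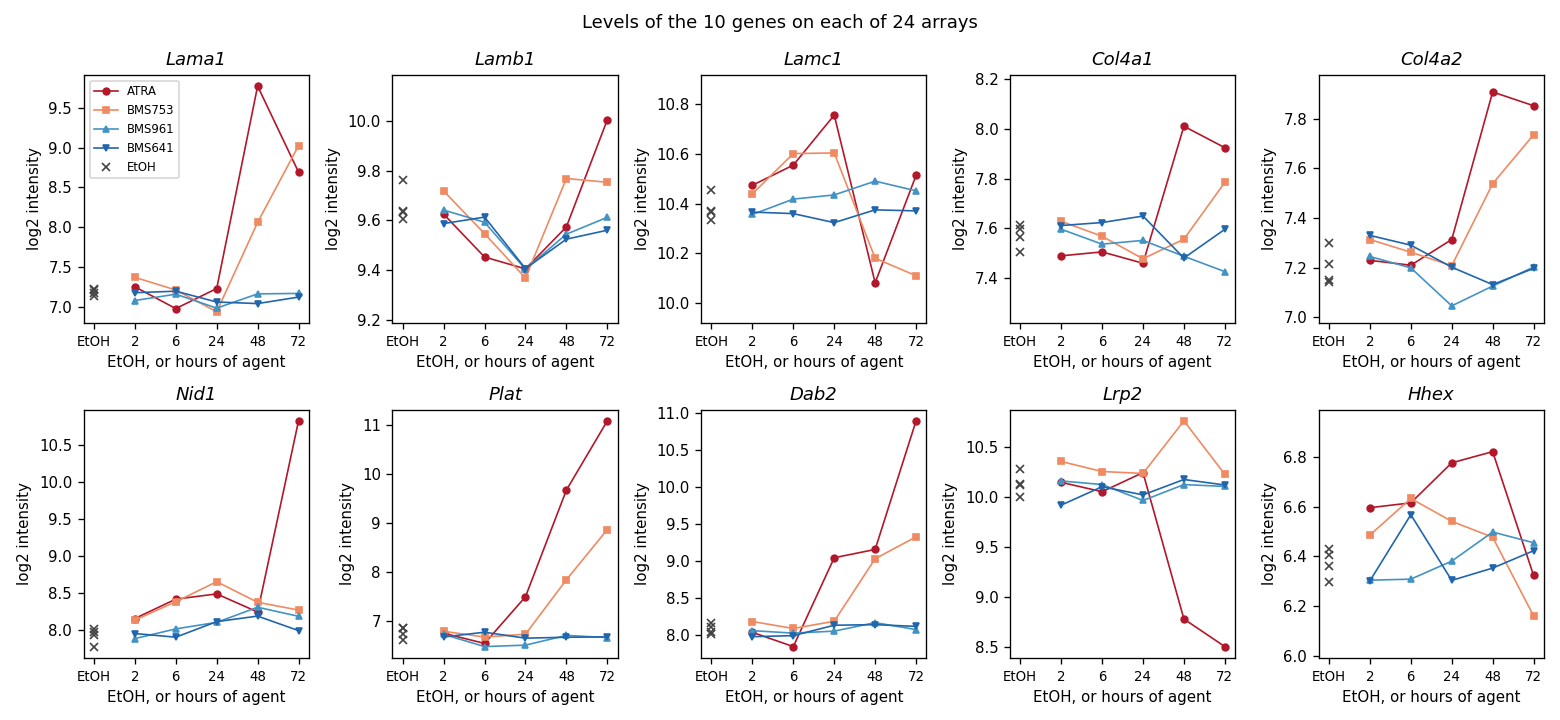
Log2 intensity of the 10 genes on all 24 arrays, with 1 panel for each gene; the horizontal axis runs from EtOH (4 arrays) to 2, 6, 24, 48 and 72 h, each point is 1 array, each agent has its own colour and each panel its own vertical scale. With ATRA, Plat and Dab2 stand clear of the EtOH arrays from 24 h on, Lama1 from 48 h and Nid1 furthest at 72 h, Lrp2 lies below them at 48 and 72 h, and the BMS641 and BMS961 points stay within 0.38 of the EtOH mean in every panel.

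Laminins form the first network of a basement membrane, and their chains did not move together here. Lama1 (chr17:67697127-67822645, GRCm38.p6, as are all positions here) encodes the α1 chain, Lamb1 (chr12:31265146-31329644) the β1 chain and Lamc1 (chr1:153218922-153332786) the γ1 chain, and together they make up laminin-111, the laminin of the early embryo.

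Lama1 was at 7.25, 6.97, 7.23, 9.77 and 8.69 with ATRA at 2, 6, 24, 48 and 72 h. With BMS753 it was at 7.37, 7.21, 6.93, 8.06 and 9.02 at the same times, and the EtOH arrays read 7.14, 7.23, 7.17 and 7.20. The 48 and 72 h arrays of both agents stood above all EtOH arrays, while at 24 h the ATRA array was level, to 2 decimals, with the highest EtOH array. The order differed between the agents: the ATRA array was higher at 48 h than at 72 h, and the BMS753 array was higher at 72 h than at 48 h. At 48 h the ATRA array was 1.71 above the BMS753 array, and at 72 h it was 0.33 below it. These differences are between single arrays. Late ATRA arrays averaged 1.38 ± 0.35 (SE) above EtOH (2.60-fold; limma, adjusted p = 0.0059). Without the 48 h arrays the change was 0.77 and was not called (adjusted p = 0.0810). As single arrays, ATRA at 48 h (6.02-fold) and 72 h (2.84-fold) and BMS753 at 72 h (3.58-fold) were called, and BMS753 at 48 h fell short of 2-fold at 1.83-fold.

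Lamb1 was at 9.62, 9.45, 9.40, 9.57 and 10.00 with ATRA at 2 to 72 h. The EtOH arrays lay between 9.61 and 9.76, so the ATRA arrays fell on both sides of them, and the late change of 0.00 ± 0.08 was not called (adjusted p = 0.997). At 24 h Lamb1 was at 9.40 with ATRA, 9.37 with BMS753, 9.41 with BMS641 and 9.40 with BMS961. All 4 arrays of that time were below all 4 EtOH arrays, by 0.25 to 0.29 from their mean, whichever agent and dose was given. No EtOH array is labelled with that time, so whether untreated cells would read the same at 24 h was not tested.

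Lamc1 was at 10.47, 10.56, 10.76, 10.08 and 10.51 with ATRA at 2 to 72 h, and at 10.44, 10.60, 10.60, 10.18 and 10.11 with BMS753. The EtOH arrays lay between 10.34 and 10.45. Both agents gave a reading above the EtOH arrays at 24 h and one below them at 48 h, and at 72 h the ATRA array was above and the BMS753 array below. The late change with ATRA was 0.07 ± 0.11 (adjusted p = 0.654). The single arrays departed from EtOH by at most 0.38, under the 2-fold limit.

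Col4a1 and Col4a2 encode the α1 and α2 chains of the most widespread collagen IV, in which both chains wind into a triple helix. The genes lie head to head on chromosome 8, Col4a1 at chr8:11198423-11312889 on the minus strand and Col4a2 at chr8:11312805-11449287 on the plus strand. The RefSeq start sites used here were 11312826 for Col4a1, inside its gene span, and 11312805 for Col4a2. The sites are 21 bases apart, and transcripts from them would overlap at their starts rather than leave a gap. The 300-base windows of the pair therefore share 78 bases. They are shown because 1 stretch of sequence serves as the start region of both genes, with Nid1, the linker gene, beside them. Each window runs from 250 bases before to 50 after the start site, 5′ to 3′ on the gene's own strand (RefSeq, GRCm38.p6): chr8:11312777-11313076 (minus) for Col4a1, chr8:11312555-11312854 (plus) for Col4a2 and chr13:13437352-13437651 (plus) for Nid1. Capitals mark GGGCGG (GC box), CCAAT and CCCTCCCC, read on either strand.
Col4a1: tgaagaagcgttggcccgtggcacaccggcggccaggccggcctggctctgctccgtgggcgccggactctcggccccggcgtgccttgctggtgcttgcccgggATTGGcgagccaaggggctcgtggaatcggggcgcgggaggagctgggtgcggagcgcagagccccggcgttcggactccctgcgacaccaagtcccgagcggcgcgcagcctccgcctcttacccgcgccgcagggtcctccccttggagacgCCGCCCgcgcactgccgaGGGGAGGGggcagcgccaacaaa
Col4a2: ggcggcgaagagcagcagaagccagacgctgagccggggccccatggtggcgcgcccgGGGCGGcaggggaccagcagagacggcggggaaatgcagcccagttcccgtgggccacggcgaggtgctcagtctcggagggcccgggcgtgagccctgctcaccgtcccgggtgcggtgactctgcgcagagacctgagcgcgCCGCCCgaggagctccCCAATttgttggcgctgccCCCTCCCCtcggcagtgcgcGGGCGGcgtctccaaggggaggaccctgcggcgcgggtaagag
Nid1: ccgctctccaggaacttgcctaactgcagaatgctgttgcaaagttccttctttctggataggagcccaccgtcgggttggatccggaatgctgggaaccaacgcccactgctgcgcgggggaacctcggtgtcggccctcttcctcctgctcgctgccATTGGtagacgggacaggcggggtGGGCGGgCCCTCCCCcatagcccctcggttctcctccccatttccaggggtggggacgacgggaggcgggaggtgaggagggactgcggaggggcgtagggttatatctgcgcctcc
The CCCTCCCC and GC box in the 78 shared bases appear in both collagen windows, once on each gene's strand. CCCTCCCC was found in these 3 of the 8 windows available for 7 of the genes (Lamb1, Col4a1, Col4a2, Nid1, Dab2 with 2, Lrp2 and Hhex), and in 10.773 percent of all 32851 promoter windows of that length. The GC box was in 6 of the 8 and in 35.658 percent of all windows, and CCAAT was in 5 of the 8 and in 37.408 percent. The retinoic acid receptor half-site AGGTCA was in 0 of the 8 and in 16.255 percent of all, so no pair of AGGTCA, spaced by 5 or by 2 bases, was found there either. TATAAA was also in 0 of the 8, against 13.616 percent of all windows. Except for 1 Dab2 window (37.67 percent), the 8 windows held 59.33 to 75.67 percent G and C, against a median of 52.67 percent for all windows. The shares were not adjusted for that, and the CCCTCCCC shared by the 2 collagen windows is counted in both. Matches are letters in a window, not bound sites. Only exact letters inside these windows were searched, so variants of a motif and sites further away were not seen. Lama1, Lamc1 and Plat had no window here. With 8 windows, a count of 0 does not show that a motif is lacking.

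Col4a2 was at 7.23, 7.21, 7.31, 7.91 and 7.85 with ATRA at 2 to 72 h. The BMS753 arrays read 7.31, 7.26, 7.21, 7.54 and 7.74, and the EtOH arrays read 7.15, 7.30, 7.21 and 7.14. The late ATRA arrays were all above the EtOH arrays, the 24 h array by the least. The change was 0.49 ± 0.09 (1.40-fold; adjusted p = 0.0009), small in size beside that of Lama1 and with a narrow error. With BMS753 it was 0.29 ± 0.09, and that comparison gave the lowest adjusted p of the 10 genes, 0.0505, just past the threshold.

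Col4a1 was at 7.49, 7.51, 7.46, 8.01 and 7.93 with ATRA at 2 to 72 h, against EtOH arrays between 7.51 and 7.61. Its 48 and 72 h arrays were above EtOH and its 24 h array was below. The late change of 0.23 ± 0.10 was not called (adjusted p = 0.0843). It was called in 2 alternatives: leaving out the 24 h arrays gave a change of 0.40 (adjusted p = 0.0003), and an error taken from the EtOH arrays alone gave an adjusted p of 0.0043. With BMS753, Col4a1 stood above EtOH at 72 h alone among the late times, by 0.22. Across the 24 arrays the levels of the pair had a Pearson r of 0.858, a description in which the arrays share times and agents.

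Nid1 (chr13:13437602-13512275) encodes nidogen-1, which binds both the laminin γ1 chain and collagen IV. It was at 8.16, 8.42, 8.49, 8.25 and 10.82 with ATRA at 2 to 72 h. Under BMS753 the levels were 8.14, 8.39, 8.66, 8.38 and 8.27, against 7.94, 8.02, 7.98 and 7.78 on the EtOH arrays. All 10 arrays of the 1 µM agents were above all 4 EtOH arrays. The level at 72 h with ATRA stood apart from the rest, 2.54 above BMS753 at that time, whereas from 2 to 48 h the agents were within 0.16 of each other. The late change with ATRA was 1.25 ± 0.37 (adjusted p = 0.0150), and it was 0.44 without the 72 h arrays, still called (adjusted p = 0.0067). The 72 h ATRA array alone was 7.39-fold above EtOH. With BMS753 the late change was 0.50 ± 0.37 and was not called, although all 3 late arrays were above EtOH.

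Plat (chr8:22757722-22782848) encodes tissue plasminogen activator, the secreted protease that turns plasminogen into plasmin, which degrades matrix. It was at 6.76, 6.55, 7.50, 9.67 and 11.07 with ATRA at 2 to 72 h. With BMS753 it was at 6.80, 6.68, 6.74, 7.85 and 8.87, against 6.63, 6.74, 6.87 and 6.87 on the EtOH arrays. The 6 h ATRA array was slightly below the EtOH range. The ATRA arrays rose above that range at 24 h and went on climbing, and the BMS753 arrays rose above it at 48 h. The order of levels was ATRA 72 h, ATRA 48 h, BMS753 72 h, BMS753 48 h and ATRA 24 h, with all other arrays at 6.87 or lower. Neighbours in that order down to BMS753 48 h were at least 0.80 apart, well past the EtOH SD of 0.11, and BMS753 48 h and ATRA 24 h were 0.34 apart.

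Late ATRA arrays were 2.64 ± 0.42 above EtOH for Plat (6.22-fold; adjusted p = 2.24e-04), the largest change among the 10 genes. As single arrays, ATRA at 72 h was 19.7-fold and at 48 h 7.42-fold above EtOH, and BMS753 was 4.26-fold above it at 72 h and 2.10-fold at 48 h. The late BMS753 change of 1.04 ± 0.42 was not called (adjusted p = 0.119). Its 24 h array was inside the EtOH range.

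Dab2 (chr15:6299788-6440715) encodes an adaptor that links megalin to clathrin for endocytosis. It was at 8.03, 7.84, 9.04, 9.15 and 10.89 with ATRA at 2 to 72 h. For BMS753 the levels were 8.18, 8.08, 8.18, 9.03 and 9.32, against 8.16, 8.04, 8.10 and 8.01 on the EtOH arrays. All late arrays of both agents were above the EtOH arrays, the BMS753 24 h array by a small margin only. The ATRA change was 1.62 ± 0.26 (adjusted p = 0.0003), and it was called in all 14 alternatives tried. Its lowest value among them, 0.82, came from averaging the 2 probe sets: the other one had a mean of 3.97 over all arrays and read 4.01 with ATRA at 72 h, against 3.90 to 4.00 in EtOH. The BMS753 change was 0.77 ± 0.26 (adjusted p = 0.0655).

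Lrp2 (chr2:69424335-69586029) encodes megalin, the large endocytic receptor of absorptive epithelia, to whose tail Dab2 binds. Its start window is shown as that of the only gene of the 10 that fell with ATRA: chr2:69585980-69586279 (minus), RefSeq, GRCm38.p6, with its GC boxes in capitals; no other motif searched was in it.
Lrp2: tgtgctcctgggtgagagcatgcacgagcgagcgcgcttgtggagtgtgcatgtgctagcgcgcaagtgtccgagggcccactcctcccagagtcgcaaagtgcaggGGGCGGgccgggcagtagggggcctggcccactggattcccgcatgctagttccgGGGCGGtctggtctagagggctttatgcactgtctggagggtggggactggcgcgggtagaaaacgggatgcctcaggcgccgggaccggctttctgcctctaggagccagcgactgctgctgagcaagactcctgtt
Lrp2 was at 10.15, 10.05, 10.24, 8.78 and 8.51 with ATRA at 2 to 72 h. BMS753 gave 10.36, 10.26, 10.24, 10.76 and 10.23, against 10.00, 10.28, 10.13 and 10.12 on the EtOH arrays. Through 24 h the ATRA arrays were inside the EtOH range, and at 48 and 72 h they were far below it. The BMS753 array at 48 h was instead 0.63 above the EtOH mean, which put the agents 1.98 apart at that time and 1.72 apart at 72 h. As single arrays, ATRA at 48 h was 2.55-fold and at 72 h 3.09-fold below EtOH, both called. Over the late arrays the ATRA change was -0.95 ± 0.26 (adjusted p = 0.0096). It was not called without the 48 h arrays (-0.76, adjusted p = 0.0678) or without the 72 h arrays (-0.62, adjusted p = 0.112). Dab2 and Lrp2, adaptor and receptor of 1 uptake route, thus moved in opposite directions with ATRA.

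Hhex (chr19:37434841-37440731) encodes a homeobox transcription factor of the anterior endoderm, thyroid and liver. It was at 6.60, 6.62, 6.78, 6.82 and 6.32 with ATRA at 2 to 72 h, against 6.41, 6.30, 6.36 and 6.43 on the EtOH arrays. The ATRA arrays from 2 to 48 h were above the EtOH arrays by a small margin, and the 72 h array was back inside their range. The late change of 0.27 ± 0.09 was called (adjusted p = 0.0368), but 8 of the 14 alternatives lost it, among them leaving out EtOH replicate 1, 2 or 3. With BMS753 Hhex was at 6.49, 6.63, 6.54, 6.48 and 6.16, and 0 single arrays of either agent passed the 2-fold limit.

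**Figure D2:**
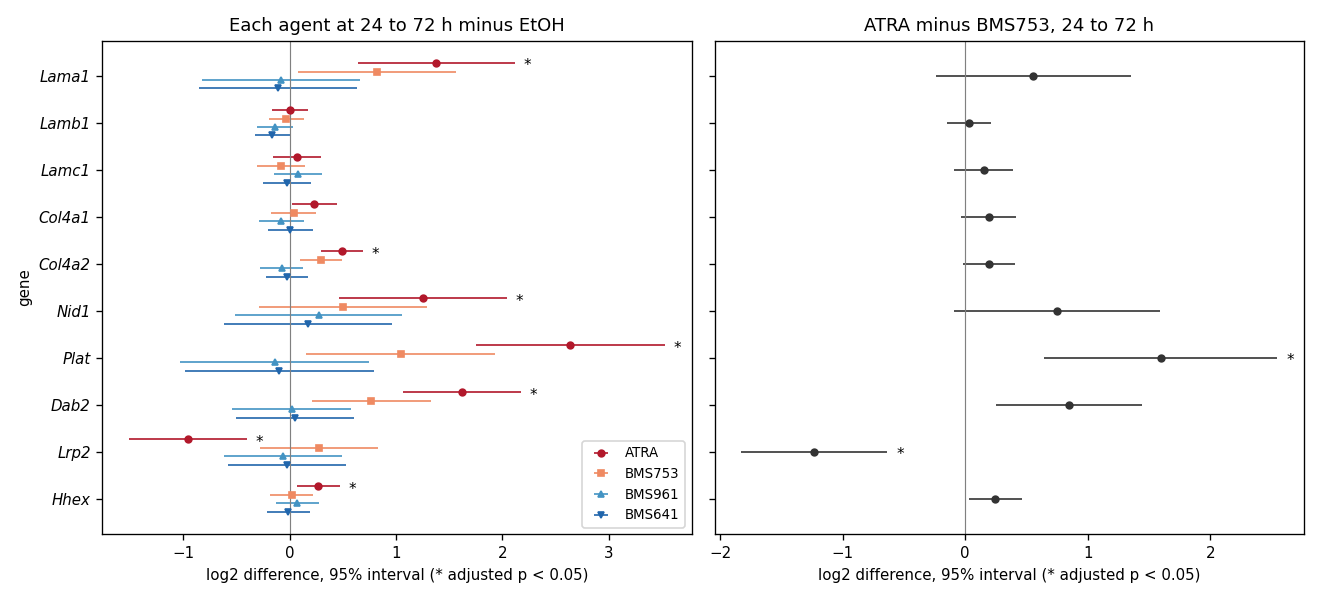
Late change (24 to 72 h) of each gene on the log2 scale, with the 95 percent confidence interval from the limma fit as the bar. The left panel shows ATRA, BMS753, BMS961 and BMS641, each against EtOH, and the right panel shows ATRA against BMS753. Plat has the largest change with ATRA (2.64) and Lrp2 is the gene with a called change below 0 (-0.95); for Plat, Dab2, Lama1 and Nid1 the BMS753 change lies nearer to 0 than the ATRA change.

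Taken by single arrays, the genes passed the limit of adjusted p under 0.05 and 2-fold in 13 of 200 readings, all at 48 or 72 h with a 1 µM agent. At 48 h with ATRA, Lama1, Plat and Dab2 were higher and Lrp2 lower, 4 of 10 genes, against 6.42 percent of all genes. At 72 h with ATRA, Nid1 joined them, 5 of 10, against 9.58 percent. With BMS753, Plat alone was called at 48 h (3.13 percent of all genes), and Lama1, Plat and Dab2 at 72 h (5.83 percent). At 2, 6 and 24 h 0 of the 10 were called with ATRA, where 0.186, 0.717 and 2.1 percent of all genes were, and 0 with BMS753, where 0.0652, 0.251 and 0.492 percent were. With BMS641 and BMS961, 0 of the 10 were called at any time, where 0.00502, 0, 0.0351, 0.0201 and 0.015 percent of all genes were at 2, 6, 24, 48 and 72 h with BMS641, and 0.0201, 0.01, 0.0351, 0.0401 and 0.0401 percent with BMS961.

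BMS753 at 24 to 72 h gave 0 called genes of the 10 in the limma fit, against 13.5 percent of all genes, with 4 of the 10 at an unadjusted p under 0.05. Its late changes had the sign of the ATRA change for Lama1 (0.82 ± 0.35), Col4a2, Nid1, Plat and Dab2. Nid1 and Dab2 had all late BMS753 arrays above all EtOH arrays, against 9.73 percent of all genes. The count of called genes depended on the times and on the error used. It was 5 when the 24 h arrays were left out, 2 when the 72 h arrays were, and 6 when the error came from the EtOH arrays alone.

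At 2 and 6 h, 0 of the 10 genes were called with ATRA (0.858 percent of all genes; 1 of the 10 at an unadjusted p under 0.05, limma) or with BMS753 (0.306 percent; 0 at an unadjusted p under 0.05). Nid1, Hhex and Lamc1 had both early ATRA arrays above all EtOH arrays, against 12.7 percent of all genes. With BMS753, Nid1 and Hhex did, against 24.6 percent.

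The 0.1 µM agents left all 10 genes near their EtOH levels. With BMS641, 0 of the 10 were called late or early, as were 0 percent of all genes. With BMS961, 0 were called late, against 0.00502 percent of all genes, and 0 early, against 0 percent. None of the 4 comparisons had any of the 10 at an unadjusted p under 0.05 (limma). The late intervals rest on an error shared by all agents, which also holds the departures of the ATRA and BMS753 courses. Those of Plat, the widest, ran from -0.99 to 0.79 with BMS641 and from -1.03 to 0.75 with BMS961. Sizeable changes in either direction lie within both intervals. The late Plat arrays themselves read 6.66, 6.68 and 6.69 with BMS641, inside the EtOH range of 6.63 to 6.87. With BMS961 they read 6.52, 6.72 and 6.67, the first of them below that range. Lama1 and Lamb1 had all late BMS641 arrays below all EtOH arrays, against 4.71 percent of all genes, with changes of -0.11 ± 0.35 and -0.16 ± 0.08 that were not called. Dab2 had both early BMS641 arrays below, against 6.15 percent, with a change of -0.10 ± 0.30. Nid1 was at 8.11, 8.31 and 8.19 with BMS961 at 24, 48 and 72 h, all above the EtOH arrays (5.88 percent of all genes), but the change of 0.27 ± 0.37 was not called. BMS961 and BMS641, at the same dose, differed in 0 of the 10 genes at 24 to 72 h, against 0 percent of all genes, with 0 of the 10 at an unadjusted p under 0.05. Their difference lay between -0.74 and 0.94 for Nid1 and between -0.99 and 0.91 for Plat. Since dose and receptor differ together, these agents were not compared with the 1 µM ones.

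ATRA and BMS753, at the same dose and times, were compared directly at 24 to 72 h. Plat was higher with ATRA, by 1.60 ± 0.45 (adjusted p = 0.0352), and Lrp2 was lower, with a difference of -1.23 ± 0.28 (adjusted p = 0.0152). The other 8 were not called, 2 of 10 against 10.4 percent of all genes, 4.44 percent higher and 5.93 percent lower. With times ignored, the late arrays of the agents overlap for both genes, because the 24 h arrays of ATRA lie among the values of BMS753. Matched by time, Plat was higher with ATRA at 24, 48 and 72 h, by 0.76, 1.82 and 2.21. Lrp2 was level at 24 h (0.01) and lower with ATRA at 48 and 72 h (-1.98 and -1.72). Those are differences between single arrays. The late difference of Plat and that of Lrp2 were not called without the 48 h arrays or without the 72 h arrays. The intervals of genes that were not called leave room for large differences: -0.09 to 1.59 for Nid1, -0.23 to 1.35 for Lama1 and 0.25 to 1.45 for Dab2 (0.85 ± 0.28, adjusted p = 0.0639). Those of Lamb1 (-0.15 to 0.21) and Col4a2 (-0.02 to 0.41) were narrower. For Col4a2 the upper end is still large beside its late ATRA change of 0.49. Without the 24 h arrays, Col4a2 (0.24, adjusted p = 0.0325) and Col4a1 (0.30, adjusted p = 0.0164) were called higher with ATRA (limma). At 2 and 6 h 0 of the 10 differed, against 0 percent of all genes.

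Within ATRA, the late arrays were compared with the early ones, a contrast that does not use EtOH. Plat (2.76), Dab2 (1.76), Lama1 (1.45) and Col4a2 (0.47) were higher late, and Lrp2 was lower (-0.92), 5 of 10 genes against 31.5 percent of all genes, 14.9 percent higher and 16.7 percent lower. Without the 2 h or without the 6 h arrays only Plat and Dab2 were called, and without the 24 h arrays 8 of the 10 were. Lama1 lost its call without the 48 h arrays too, and Lrp2 without the 48 h or the 72 h arrays. Over the 4 losses of Lrp2 on leaving out a time, the adjusted p was 0.128 to 0.216 (limma). A fit of the ATRA arrays alone, without time terms, called 0 of the 10, with 2 at an unadjusted p under 0.05 (limma). With BMS753 the same contrast called 0 of the 10, against 10.8 percent.

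The other genes of the pathway were read from lists of names, and the counts below stand beside 17.9 percent of all genes called higher and 19 percent lower with late ATRA, and 13.5 percent called in either direction with BMS753. Of 7 other laminin chains measured, 1 rose with late ATRA, Lamb2 (the β2 chain, by 0.65 ± 0.11; adjusted p = 0.0003), and 6 were not called. None of the 4 other collagen IV chains was called with ATRA. With BMS753 2 of these 4 rose, Col4a6 (0.74 ± 0.21; adjusted p = 0.0303) and Col4a5 (0.63 ± 0.19; adjusted p = 0.0360), the chains of a collagen IV of smooth muscle and epithelia. The difference between the agents was not called for any of the 4.

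Among 18 linkers, proteoglycans and minor components, 8 rose, 3 fell and 7 were not called with late ATRA. The largest changes were those of Npnt (nephronectin, an integrin ligand; 2.84 ± 0.40), Fras1 (a matrix protein of the epidermal basement membrane; 1.17 ± 0.24), Agrn (agrin, a proteoglycan that binds laminin; 1.07 ± 0.14) and Smoc2 (1.06 ± 0.27). With BMS753, 5 of the 18 rose and 0 fell, with Npnt at 1.65 and Agrn at 0.96. Of 10 receptors for basement membranes, 5 rose and 1 fell with ATRA, where 36.9 percent of all genes were called. Itga6, the integrin α6 subunit that binds laminin, fell by 1.60 on the log2 scale (SE 0.23). Dag1 (dystroglycan) rose by 0.59 ± 0.05, Itga2 by 0.70 ± 0.19 and Itga3 by 0.46 ± 0.12. Itga6 also fell with BMS753 (-1.02), and Dag1 rose (0.47).

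Of 11 genes for folding and crosslinking collagen IV, 2 rose and 2 fell with ATRA, a share near the 36.9 percent of all genes called, and all by less than 0.32: Pxdn (peroxidasin, which crosslinks collagen IV) by 0.31, Plod3 by 0.17, P4ha1 by -0.31 and P4hb by -0.23. Of 10 other genes of the plasminogen system and matrix proteolysis, 4 rose and 1 fell. Timp2, a metalloproteinase inhibitor, rose by 1.47 ± 0.22, Plau, the urokinase-type activator, by 1.20 ± 0.29 and Mmp9 by 0.45 ± 0.16, while Timp1 changed by -0.43 ± 0.08. Of 10 other endocytic receptors and adaptors, 2 rose and 6 fell, the reverse balance. Vldlr changed by -1.33 ± 0.21, Myo6 by -0.81 ± 0.22, Lrp8 by -0.49 ± 0.10 and Clcn5 by 0.43 ± 0.11. With BMS753, 0 of these 10 rose and 2 fell.

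**Figure D3:**
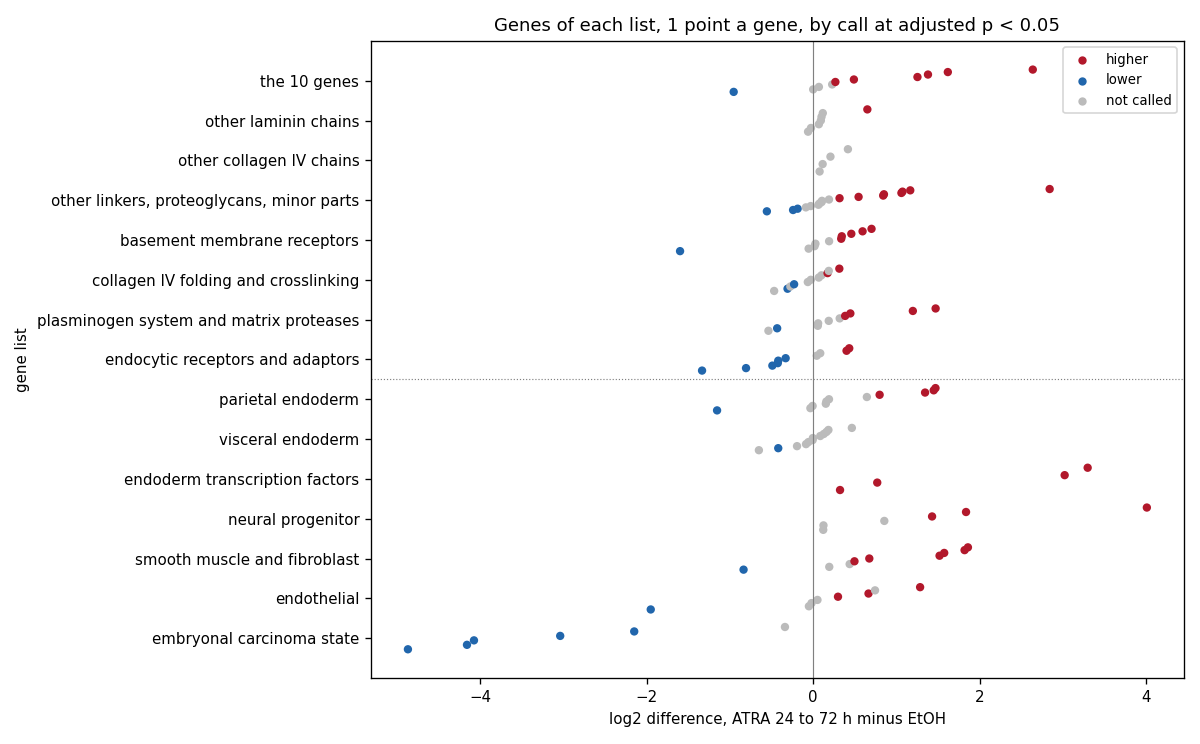
Late ATRA change against EtOH (horizontal axis, log2 difference) of the measured genes in each named list. Each point is 1 gene, coloured as called higher, called lower or not called. The linkers and proteoglycans hold the most called genes (8 higher and 3 lower of 18), the endocytic list has more lower (6) than higher (2), and the visceral endoderm list has 0 higher and 1 lower of 12.

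The label of endoderm was set against marker lists in the same comparison. Of 12 visceral endoderm markers 0 rose and 1 fell with late ATRA, and the mean of the list on single arrays lay between -0.15 and 0.03, against -0.06 to 0.04 on EtOH arrays. Of 11 parietal endoderm markers 4 rose (Krt8 by 1.47, Pth1r by 1.45, Pdgfra by 1.34 and Krt19 by 0.80) and 1 fell (Fst, -1.15), all 5 named after their values were seen, with a list mean of -0.08 to 1.04, against -0.03 to 0.03 in EtOH. All 4 endoderm transcription factors listed rose, with a list mean of 1.55 to 2.01, against -0.09 to 0.08 in EtOH. Their rises were unequal: late ATRA and EtOH means were 10.53 and 7.51 for Gata6, and 9.19 and 5.90 for Foxa1. They were 6.06 and 5.29 for Sox17, and 7.07 and 6.75 for Gata4. Markers of other cells moved on the same arrays. With late ATRA, 3 of 6 neural progenitor markers rose (list mean 0.91 to 1.76, against -0.02 to 0.02 in EtOH), 6 of 9 smooth muscle and fibroblast markers rose and 1 fell (-0.01 to 1.88, against -0.03 to 0.02), and 3 of 8 endothelial markers rose and 1 fell (0.10 to 0.17, against -0.02 to 0.02). Of 6 genes of the embryonal carcinoma state, 5 fell (-4.63 to -0.84, against -0.06 to 0.04). Their part in the levels of the 10 genes was not tested. The genes are therefore called endoderm effectors here only by their usual description.

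Among the 10 genes, levels over the 24 arrays ran most alike for Plat and Dab2 (Pearson r = 0.953), Lama1 and Col4a2 (0.949) and Col4a2 and Plat (0.928). Lrp2 ran opposite to Plat (-0.747) and Col4a1 (-0.757), and Lama1 opposite to Lamc1 (-0.589), its partner in 1 trimer. These are descriptions: the arrays share agents, times and plates of 1 line, and 4 of them are EtOH.

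**Figure D4:**
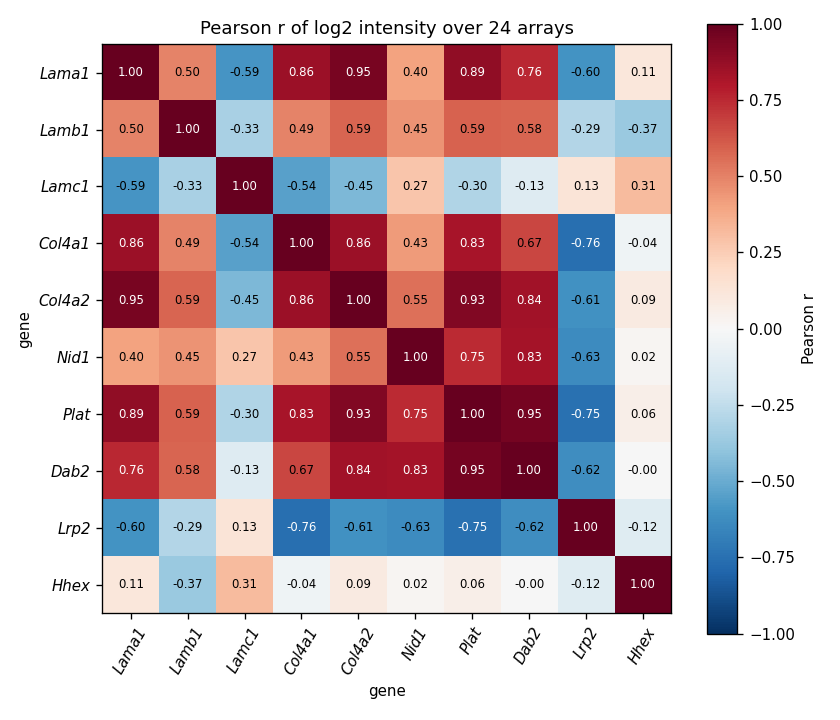
Pearson r between the log2 intensities of each pair of the 10 genes over the 24 arrays, as a coloured grid with the value in each cell. Plat, Dab2, Lama1, Col4a2 and Col4a1 form a block of positive values. Nid1 (0.40 to 0.83) and Lamb1 (0.49 to 0.59) are also positive with each gene of the block, and Lrp2 is negative with all of these.

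The genes whose levels ran most like each one were sought among 2352 genes with an SD of at least 0.3 over the arrays. Plat ran most like Fbxl7 (r = 0.992), Nrep and Sncaip, and Dab2 like Thbs1 (0.988), Insm1 and St3gal5. Lama1 ran like Draxin, Lgr5 and Mylk (0.980 each), Col4a2 like Vgll4 (0.967), Ctxn1 and Fam89b, and Nid1 like Dnajb4 (0.956), Zbtb7c and Cpa6. Lrp2 ran most like Mogat2 (0.955), Phlda2 and Coro2a. Likeness was weaker for Col4a1 (F11r, 0.912), Lamc1 (L1cam, 0.848), Hhex (St8sia6, 0.841) and Lamb1 (Setbp1, 0.788), genes whose levels moved little.

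Array medians lay between 6.502 and 6.677, and pairs of EtOH arrays differed with an SD of 0.0941 to 0.143 over all genes. The first principal component took 64.8 percent of the variance. No EtOH array stood apart for any of the 10 genes by Dixon's test, and their EtOH SDs were 0.04 (Lama1) to 0.11 (Plat and Lrp2). With 4 arrays that test can flag only an extreme one. Nid1 read 7.78 on EtOH replicate 4, against 7.94, 8.02 and 7.98 on the others, and was not flagged. Precision is limited by how few arrays there are.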

How the data were processed

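The authors deposited 1 log2 intensity for each probe set and array, made with Affymetrix Expression Console 1.1, per the submitters' processing notes. The background correction and the normalization used were not given in the sources used here. The range of the deposited values, 2.859 to 14.3, is the basis for reading them as log2. If arrays were forced to 1 distribution, a change in total RNA cannot be seen. The 35556 probe sets comprised 21789 with 1 gene symbol, 1621 with several, and 12146 without a name here. Gene symbols were checked against a RefSeq table (21698 probe sets matched, 0 symbols changed). For 999 genes with over 1 probe set the one with the highest mean was kept, giving 19938 genes, with no filter on dim ones.

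The 24 arrays were grouped by the agent and time in the labels. The model, fitted in R 4.3.3 by limma 3.58.1 (lmFit, eBayes with trend), had means for EtOH and for the early and late arrays of each agent, and time terms shared by the agents that sum to 0. Residual degrees of freedom were 12, and those of the prior 3.10. There were 13 comparisons, each adjusted by Benjamini-Hochberg over all genes, two-sided. Single times came from a second limma fit with a mean per agent and time (20 comparisons). The fit was tried on simulated data with independent noise of the EtOH spread and constant shifts on the late ATRA arrays. Courses that change with time were not simulated, so that trial does not test the error they add.

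The 10 genes and all gene lists were chosen with earlier results of these data known. All 10 genes are named. Of each pathway list, at most the 4 called genes with the largest late change are named. Those with the highest Pearson r to each of the 10, and an SD of at least 0.3, are also named. Alternatives changed the choice of probe set, normalization, low-signal filter, variance estimate, time terms and arrays. Promoter windows and motif matches came from RefSeq tables (GRCm38.p6). F9 cells were not analysed here.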

Additional observations from a re-analysis of the deposited data

Results flagged for a closer look

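The change between the early (2 and 6 h) and the late (24 to 72 h) ATRA arrays was itself past the threshold for 5 of the 10 genes. The late minus early difference in log2 intensity was 1.45 for Lama1 (adjusted p = 0.0158), 0.47 for Col4a2 (0.0056), 2.76 for Plat (0.0011) and 1.76 for Dab2 (0.0010), all higher late. For Lrp2 it was -0.92, lower late (adjusted p = 0.0351). These are limma tests of the difference over 3 late and 2 early arrays, and 31.5 percent of all genes passed. Leaving out the 2 h or the 6 h arrays took the call from Lama1, Col4a2 and Lrp2 (2 of the 10 genes called), and a fit of these arrays alone without time terms called 0 (2 at an unadjusted p under 0.05).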

How the results depend on the processing

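Of 130 results (10 genes in 13 comparisons), 14 were called, of which 13 lost the call under at least 1 alternative, and 25 of the 116 not called gained it. Counting only sign changes in which the main or the alternative result was called, the direction was reversed for 0 of the 130. Small uncalled changes did switch sign: with late ATRA, Lamc1 went from 0.07 to -0.08 without the 24 h arrays. The numbers of the 10 genes called moved as follows. With only the groups compared and no time terms, 1 was called with late ATRA, 1 each with early ATRA, early BMS753 and late BMS961, 0 between ATRA and BMS753 late (1 at an unadjusted p under 0.05), and 0 between late and early ATRA (2 unadjusted). With an error from the EtOH arrays alone, 6 were called with late BMS753, 1 each with early ATRA, early BMS753 and late BMS961, 9 between ATRA and BMS753 late, and 4 between late and early BMS753. Late BMS753 gave 1 with the third of genes with the lowest means left out, with probe sets averaged by gene, or with robust variance moderation. ATRA against BMS753 late gave 1 with no time terms. Leaving out 1 EtOH array or all arrays of 1 time gave 4 to 7 with late ATRA, 0 to 5 with late BMS753, 0 to 4 between ATRA and BMS753 late, 2 to 8 between late and early ATRA and 0 to 5 between late and early BMS753. The lowest count with late ATRA came without 48 h, and the highest with late BMS753 without 24 h.

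Over all genes, 7362 were called with late ATRA (2269 with only the groups compared; 5784 to 8960 leaving out arrays). With late BMS753 2683 were called (6247 with the EtOH spread, 299 with only the groups compared, 1051 to 5364 leaving out arrays). Between ATRA and BMS753 late 2067 were called (7024 with the EtOH spread, 0 with only the groups compared, where 1440 had an unadjusted p under 0.05, and 317 to 4735 leaving out arrays). Reversals were seen among listed genes not named in the text above: leaving out arrays, Sparc ranged from -0.36 to 0.49 and Ddr1 from -0.38 to 0.28 with late ATRA, both lowest without 72 h. Between ATRA and BMS753, Sparc ranged from -0.25 (without 72 h) to 0.62, and Flt1 from -0.64 (without 24 h) to 0.77. The cause was not tested, beyond that the EtOH spread leaves out the agents' courses and that fewer arrays entered the restricted fits. Pairing by replicate was not possible because only the EtOH arrays carry replicate numbers. The agents were matched by time, through the shared time terms.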
